A study of Sus scrofa with 67 samples.

Results

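The genes described here are 8 carriers that move amino acids across the plasma membrane, and they were followed in the longissimus dorsi, the long back muscle, of 67 Swiss Large White pigs. They are SLC7A1, SLC7A2, SLC7A5, SLC3A2, SLC38A2, SLC38A3, SLC1A4 and SLC36A4, picked by symbol among the 18158 genes of the deposited read count table. Each was read in all 7 groups, and the rule uses no measured value. The genes were nevertheless chosen with earlier results of these data known. STD (n = 6) and LP (n = 6) are named for the diets of weeks 1 to 4 after weaning. The LP diet had 81% of the total crude protein of the standard diet and 79% of the digestible part, while digestible amino acids met the requirement in both. In weeks 5 to 8 pigs from STD stayed on the standard diet (STD-STD, n = 12). Pigs from LP then ate the standard diet (LP-STD, n = 12) or a version of it richer in digestible lysine, by 10% in LP-STD10 (n = 12) and by 20% in LP-STD20 (n = 12), in which the remaining essential amino acids exceeded requirement. A group labelled BL (n = 7) is not explained in the labels, so its age and diet are not known. All animals were fed ad libitum, females and castrated males were used, and the sex, litter and sampling week of each library are not given.

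Muscle fibres take up amino acids for protein synthesis through such carriers. As background from human and rodent work, SLC7A1 and SLC7A2 carry the cationic amino acids lysine and arginine. SLC7A5 is the light chain that exchanges large neutral amino acids such as leucine, and SLC3A2 is the heavy chain that brings it to the membrane. SLC38A2 and SLC38A3 take up small neutral amino acids and glutamine together with sodium, SLC1A4 exchanges alanine, serine and cysteine, and SLC36A4 carries proline and tryptophan. When amino acids run short, cells activate the kinase GCN2 and the transcription factor ATF4, and SLC7A1, SLC7A5, SLC3A2, SLC38A2 and SLC1A4 are among the genes known to answer to ATF4.

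Libraries held 26680567 to 36935497 counts. Levels are given as CPM (counts scaled to library size), scaled over all libraries with the trimmed mean of M values (TMM), and are not corrected for gene length, so levels of different genes are not compared. The library names number each second-period group in 3 runs of 4 consecutive libraries, and the labels do not say what a run is. The 3 blocks of 16 consecutive numbers each hold 4 libraries of every second-period group. BL carries the numbers 1 to 7, STD 10 to 15, and LP 8, 9 and 16 to 19. The tissue label was checked against 7 fast fibre genes, whose summed level was 26468 to 90919 CPM over all libraries. MYH1, MYH2 and MYH4 were absent from the counted genes and are not in the sum. BL replicate 4 held the lowest value, 26468 CPM against 50752 to 65197 CPM in the other BL libraries, so the calls against BL are also given without it. In the second period LP-STD10 replicate 10 was lowest, at 41528 CPM. That library also held the lowest SLC7A5 (22.8 CPM) and SLC3A2 (53.0 CPM) of LP-STD10.

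All 8 genes were detected at 1 CPM or more in 67 of 67 libraries, and all 8 passed the filter on low counts in every fit. In the RefSeq annotation of Sscrofa11.1, the build named in the submitters' processing notes, SLC7A1 spans 6538053 to 6604654 on chromosome 11 and SLC7A2 spans 5191973 to 5271849 on chromosome 17. SLC7A5 spans 1545940 to 1574298 on chromosome 6, and its entry there is classed as a long non-coding RNA, so its identity rests on the symbol alone. SLC3A2 lies at 8892071 to 8919070 on chromosome 2 and SLC38A2 at 77113491 to 77127715 on chromosome 5. SLC38A3 lies at 32683131 to 32699803 on chromosome 13, SLC1A4 at 76938102 to 76970519 on chromosome 3, and SLC36A4 at 25639370 to 25689177 on chromosome 9. SLC36A4 overlaps the annotated gene DEUP1, and since the strand setting of the counting is not given, reads of these 2 genes cannot be told apart. The other 7 overlap no annotated gene.

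SLC7A1, the carrier of lysine and arginine, ranged from 2.88 to 76.7 CPM. The lowest, median and highest library held 4.13, 5.05 and 18.3 CPM in BL, 11.9, 28.9 and 43.8 CPM in STD, and 6.39, 19.2 and 76.7 CPM in LP. In the second period they held 3.65, 4.52 and 21.0 CPM in STD-STD, 4.05, 10.1 and 36.6 CPM in LP-STD, 2.88, 5.79 and 7.23 CPM in LP-STD10, and 3.95, 5.76 and 24.7 CPM in LP-STD20. STD and LP thus held the highest medians, and in LP the library at 76.7 CPM stood far above the next at 28.0 CPM. Group means ran in the order LP-STD10, STD-STD, LP-STD20, BL, LP-STD, LP and STD, from 5.53 ± 1.499 CPM (SD, n = 12) to 27.6 ± 10.4 CPM (SD, n = 6), and no step between neighbours passed the larger SD of the pair.

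SLC7A2, the other cationic carrier, fell into 2 separate sets of libraries, as the plot of its ranked levels shows. In 10 libraries it was at 6.53 to 11.2 CPM and in the other 57 at 24.9 to 90.6 CPM, with a gap of 1.16 on the log2 scale against 0.63 for the next widest. The low set held BL replicates 1, 3 and 4, STD replicate 6, STD-STD replicates 10 and 11, LP-STD10 replicates 6 and 11 and LP-STD20 replicates 1 and 12. None of the LP libraries (38.6 to 65.3 CPM) or the LP-STD libraries (52.4 to 90.6 CPM) was in it. Group means ran in the order BL, STD, LP-STD20, STD-STD, LP-STD10, LP and LP-STD, from 35.4 ± 25.9 CPM (SD, n = 7) to 67.1 ± 10.5 CPM (SD, n = 12), and only the step from LP to LP-STD passed the larger SD of its pair. The split into 2 sets was noticed in the data, its cause was not tested, and no correlation is given for this gene.

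**Figure D1:**
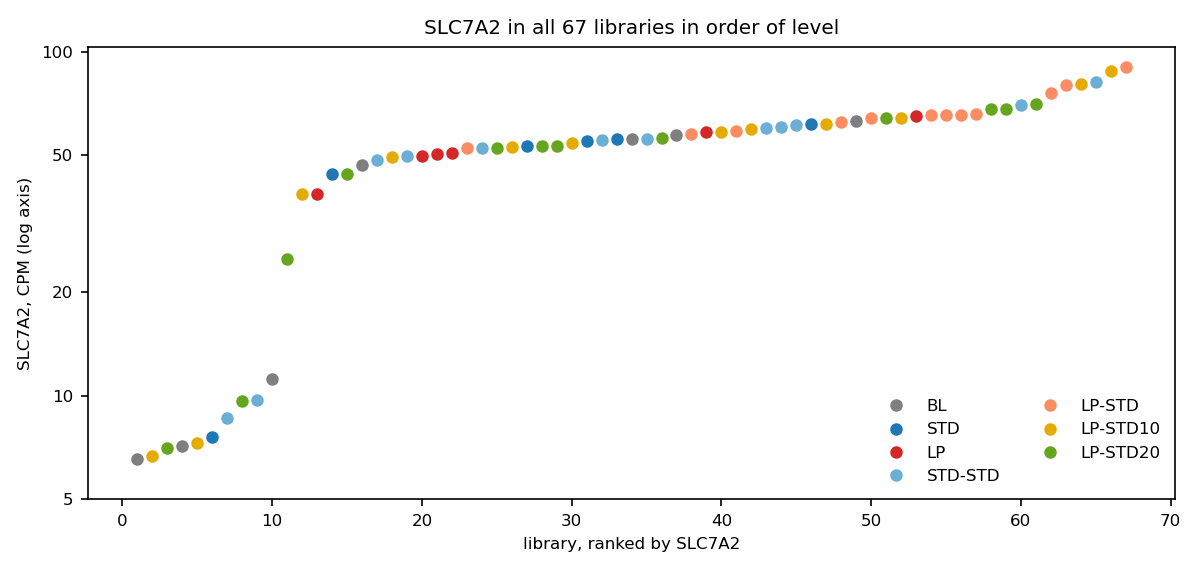
SLC7A2 level in CPM (log axis) of each of the 67 libraries, ordered by level, with colours for the 7 groups. The 10 lowest libraries lie at 6.53 to 11.2 CPM, apart from the 57 at 24.9 to 90.6 CPM, and come from 5 of the 7 groups.

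SLC7A5, the light chain of the large neutral exchanger, ranged from 8.12 to 162 CPM. The lowest, median and highest library held 8.12, 14.5 and 57.2 CPM in BL, 26.4, 110.2 and 124 CPM in STD, and 9.67, 50.7 and 84.5 CPM in LP. In the second period they held 29.7, 60.3 and 146 CPM in STD-STD, 42.4, 102 and 162 CPM in LP-STD, 22.8, 43.2 and 59.4 CPM in LP-STD10, and 26.7, 50.1 and 106 CPM in LP-STD20. The group means lay lowest in BL (22.8 ± 16.9 CPM, SD, n = 7) and went up through LP-STD10, LP, LP-STD20, STD-STD and STD to LP-STD (102 ± 32.5 CPM, SD, n = 12). Only the step from BL to LP-STD10 passed the larger SD of its pair, and STD and LP-STD, at the top, differed by less than either SD.

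Its heavy chain SLC3A2 ranged from 43.7 to 510.2 CPM. The lowest, median and highest library held 43.7, 89.9 and 194 CPM in BL, 148, 303 and 351 CPM in STD, and 65.5, 229 and 403 CPM in LP. In the second period they held 63.0, 119.6 and 321 CPM in STD-STD, 124, 198 and 510.2 CPM in LP-STD, 53.0, 109 and 209 CPM in LP-STD10, and 61.7, 103 and 244 CPM in LP-STD20. Means ran in the order BL, LP-STD10, LP-STD20, STD-STD, LP-STD, LP and STD, from 109 ± 63.6 CPM (SD, n = 7) to 269 ± 85.4 CPM (SD, n = 6), with no step past the larger SD of its pair. The log2 ratio of SLC7A5 to SLC3A2 within a library had a median of -2.12 in BL, -1.48 in STD, -2.42 in LP, -1.14 in STD-STD, -1.11 in LP-STD, -1.42 in LP-STD10 and -1.30 in LP-STD20. This ratio is not corrected for length, so only its difference between groups can be read, and its ranges overlapped between STD (-2.49 to -1.01) and LP (-3.85 to -2.04).

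SLC38A2, the sodium-coupled carrier of small neutral amino acids, ranged from 44.7 to 219 CPM. The lowest, median and highest library held 65.7, 72.1 and 100.3 CPM in BL, 59.1, 99.8 and 121 CPM in STD, and 44.7, 63.9 and 70.7 CPM in LP. In the second period they held 57.4, 86.3 and 156 CPM in STD-STD, 81.8, 119 and 211 CPM in LP-STD, 64.8, 114 and 219 CPM in LP-STD10, and 54.4, 87.3 and 132 CPM in LP-STD20. LP lay lowest (60.4 ± 10.2 CPM, SD, n = 6), and BL, the next group (79.7 ± 13.9 CPM, SD, n = 7), was above it by more than the larger SD. The order went on through LP-STD20, STD-STD, STD and LP-STD10 to LP-STD (131 ± 33.9 CPM, SD, n = 12) with no further step of that size.

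Levels of the remaining 3 genes are given by their group means. SLC38A3, a glutamine carrier, had means from 23.7 ± 7.80 CPM (SD, n = 12) in STD-STD to 45.1 ± 15.3 CPM (SD, n = 7) in BL. SLC1A4, the exchanger of alanine, serine and cysteine, had means from 20.0 ± 9.83 CPM (SD, n = 12) in LP-STD10 to 57.1 ± 18.0 CPM (SD, n = 6) in STD, and its lowest library was BL replicate 4 at 1.54 CPM against 4.86 to 61.7 CPM in the other BL libraries. SLC36A4, the proline and tryptophan carrier, was low throughout, with means from 2.17 ± 0.59 CPM (SD, n = 6) in LP to 3.10 ± 0.63 CPM (SD, n = 12) in STD-STD. No step between neighbouring group means of these 3 genes passed the larger SD of its pair.

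**Figure D2:**
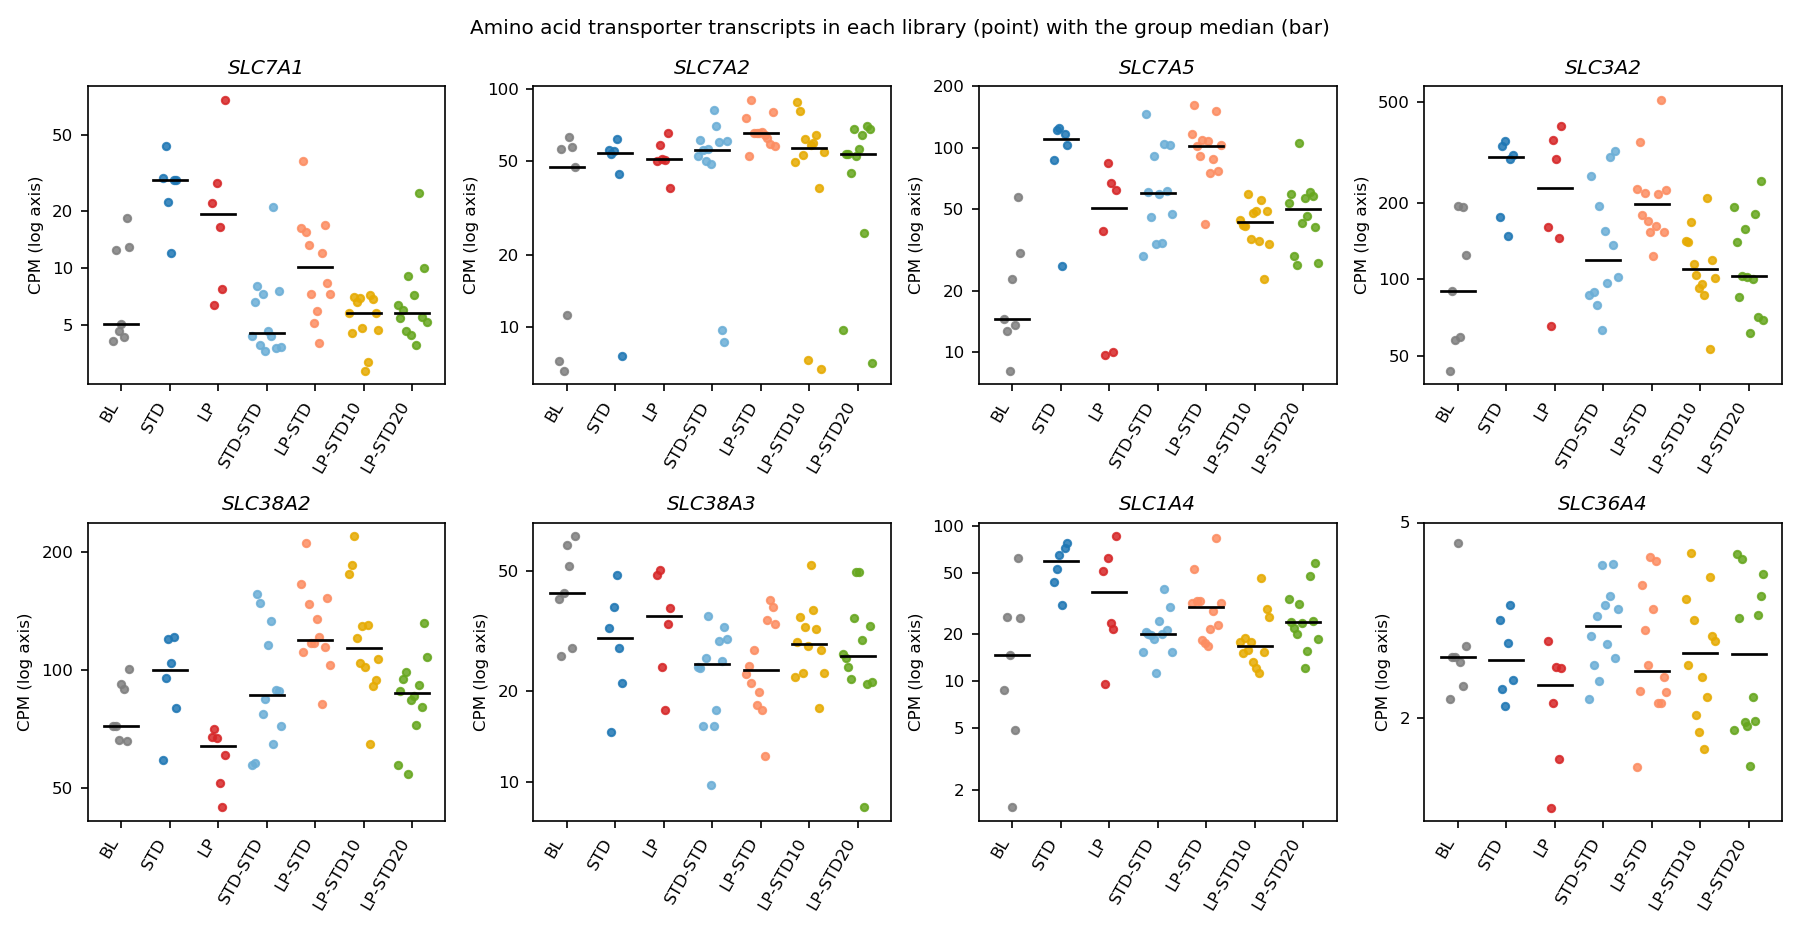
Level in CPM (log axes) of the 8 transporters in each library (points), by group, with the group median (bar). SLC7A1, SLC7A5, SLC3A2 and SLC1A4 have their highest median in STD. Every transporter except SLC38A3 has a lower median in LP than in STD, and SLC7A2 shows a few low libraries in 5 of the 7 groups.

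Differences between groups were tested with edgeR's quasi-likelihood F test on the counts, with Benjamini-Hochberg adjusted p over all genes tested and a threshold of 0.05, and a gene past it is said to be called. Log2 differences are given ± SE. Across all 7 groups together 44.8% of 13517 genes were called, and 6 of the 8 transporters were, the exceptions being SLC7A2 (adjusted p = 0.581) and SLC36A4 (adjusted p = 0.4999). The RNA came from whole muscle, so fewer cells of a type and less RNA per cell cannot be told apart.

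The first lysine comparison set LP-STD10 against LP-STD, groups that shared their first diet, with more digestible lysine in the second diet of LP-STD10. In the lysine-enriched diets the remaining essential amino acids exceeded requirement, and whether lysine was the only difference is not stated. SLC7A5 fell: its log2 difference was -1.24 ± 0.23 (n = 12 per group, adjusted p = 0.00597), a 2.37-fold lower level. All 12 LP-STD10 libraries lay below the LP-STD median of 102 CPM, and 6 of them below every LP-STD library, although the ranges overlapped. It was the 1 transporter called, among 0.407% of 13032 genes called and 0.345% called lower. The call was kept under all 9 other settings tried and without each of the 24 libraries in turn, with log2 differences from -1.25 to -1.15 over the settings and from -1.32 to -1.16 over the libraries left out.

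Within the blocks of 16 libraries the SLC7A5 difference in mean log2 CPM was -1.31, -0.92 and -1.41, with two-sided exact permutation p of 0.0286, 0.0857 and 0.0286, where 0.0286 is the smallest that 4 against 4 libraries allow. SLC7A1 differed by -1.15 ± 0.31 (adjusted p = 0.0757) and SLC3A2 by -0.91 ± 0.26 (adjusted p = 0.0970), neither past the threshold. In both, LP-STD10 libraries lay mostly low, all 12 below the LP-STD median for SLC7A1 and 11 of 12 for SLC3A2. SLC7A1 was called in 2 of the 9 other settings, DESeq2 and a replicate block, with adjusted p up to 0.422 over the settings. Of the 24 refits with a library left out 1 called it, without LP-STD replicate 5 (adjusted p = 0.0428), and the highest adjusted p was 0.201. Its differences within the blocks were -1.65, -0.38 and -0.78, the first block holding the largest. SLC1A4 differed by -0.70 ± 0.25 (adjusted p = 0.196), SLC7A2 by -0.37 ± 0.33, SLC38A3 by 0.22 ± 0.21, SLC38A2 by -0.05 ± 0.17 and SLC36A4 by -0.01 ± 0.17. The median of the 8 log2 differences was -0.54, against 0.01 over all genes tested.

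**Figure D3:**
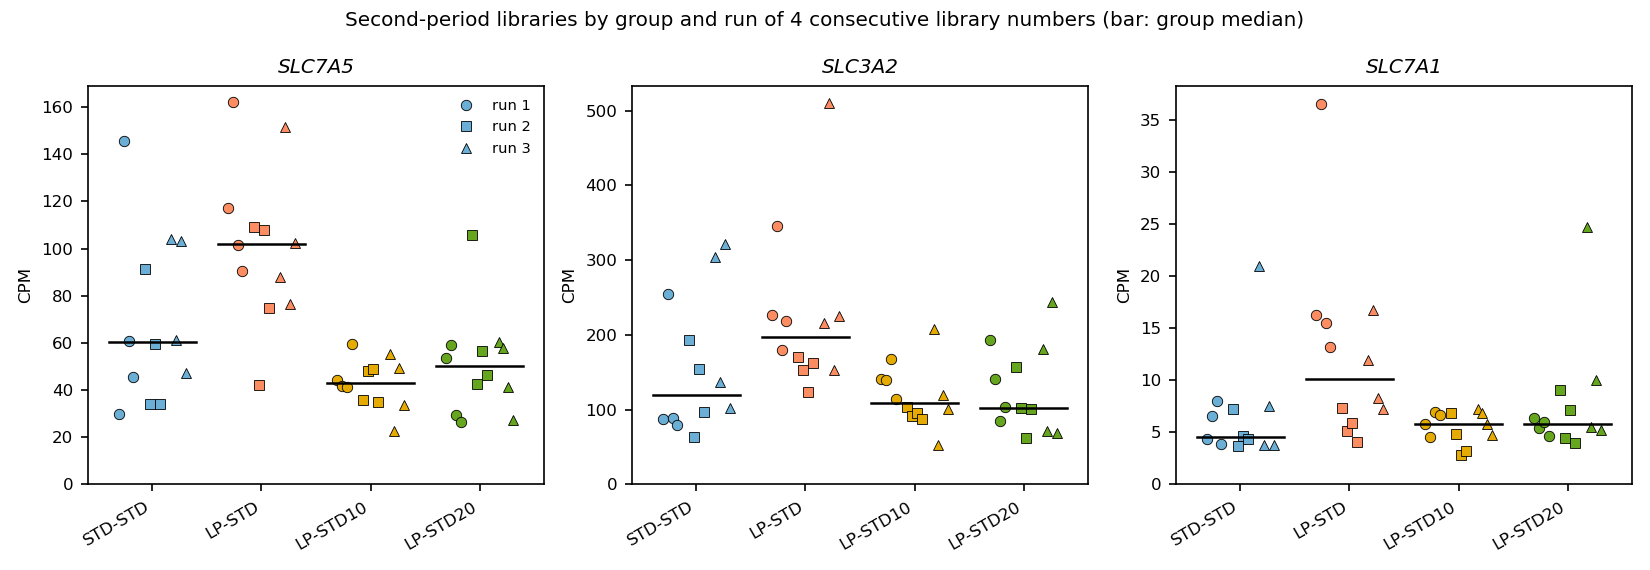
Level in CPM of SLC7A5, SLC3A2 and SLC7A1 in the 48 second-period libraries, by group, with marker shapes for the 3 runs of 4 consecutive library numbers and bars for the group median. For SLC7A5 the LP-STD10 libraries lie between 22.8 and 59.4 CPM in all 3 runs, and the LP-STD libraries between 42.4 and 162 CPM.

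The second lysine comparison set LP-STD20 against the same LP-STD libraries, so both lysine comparisons share them. No transporter was called, among 0.0460% of genes called, and 4 of 8 were under an unadjusted p of 0.05, as were 15.9% of all genes. SLC7A5 differed by -1.005 ± 0.22 (n = 12 per group, adjusted p = 0.0633), with 11 of 12 LP-STD20 libraries below the LP-STD median. It was called with DESeq2, with limma voom and with a replicate block, and also without LP-STD replicate 5, 6 or 11 or LP-STD20 replicate 5 or 9, with a lowest adjusted p of 0.00976. Its differences within the blocks were -1.53, -0.41 and -1.18, with exact permutation p of 0.0286, 0.371 and 0.0286. LP-STD20 replicate 5, at 106 CPM, lay in the block with -0.41.

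SLC38A2 differed by -0.58 ± 0.17 (adjusted p = 0.134) in LP-STD20 against LP-STD, with 4 of 12 LP-STD20 libraries below every LP-STD library. SLC3A2 differed by -0.83 ± 0.26 (adjusted p = 0.142) and was called with limma voom. SLC7A1 differed by -0.67 ± 0.31 (adjusted p = 0.275), SLC7A2 by -0.48 ± 0.33, SLC1A4 by -0.23 ± 0.25, SLC38A3 by 0.17 ± 0.21 and SLC36A4 by 0.01 ± 0.17. The median of the 8 was -0.53, against 0.01 over all genes tested.

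Set directly against each other, LP-STD20 and LP-STD10 gave 0 called genes, and 1 transporter under an unadjusted p of 0.05, SLC38A2, as were 5.58% of all genes. SLC38A2 differed by -0.53 ± 0.17 (n = 12 per group, unadjusted p = 0.00367, adjusted p = 0.805). Its differences in mean log2 CPM within the blocks were -1.04, -0.66 and 0.20, so its direction was not the same in each. For SLC7A5 the difference was 0.24 ± 0.22, with an interval of 2 SE from -0.21 to 0.68, an interval that includes 0 and leaves differences of that size unresolved. SLC7A1 (0.48 ± 0.31) and SLC1A4 (0.47 ± 0.25) gave positive values, and DESeq2 called none of the 8 here.

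The carry-over comparison set LP-STD against STD-STD, groups on the same second diet after different first diets. No gene was called, 0% of 13032, and DESeq2 and limma voom called none of the 8 transporters. Unadjusted p was under 0.05 for 4 of the 8, as for 10.1% of all genes. SLC7A1 differed by 0.91 ± 0.31 (adjusted p = 0.321), SLC1A4 by 0.60 ± 0.25, SLC7A5 by 0.58 ± 0.22, SLC3A2 by 0.51 ± 0.26 and SLC38A2 by 0.46 ± 0.17. In all, 7 of 8 were above 0, the exception being SLC36A4 (-0.14 ± 0.17), and the median was 0.48 against -0.01 over all genes. The SLC7A1 difference in mean log2 CPM was 1.75, 0.18 and 0.60 within the 3 blocks, the first block holding the largest.

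LP-STD10 and LP-STD20 were also set against STD-STD, the pigs that never ate the low protein diet. In LP-STD10 0.399% of genes were called and no transporter was, with 2 of 8 under an unadjusted p of 0.05 against 13.0% of all genes. SLC7A5 differed by -0.66 ± 0.22 (adjusted p = 0.169) and SLC38A2 by 0.41 ± 0.17 (adjusted p = 0.286). In LP-STD20 no gene was called, 0 of the 8 were under an unadjusted p of 0.05 against 8.94% of all genes, and the 8 log2 differences ran from -0.42 ± 0.22 for SLC7A5 to 0.37 ± 0.25 for SLC1A4. DESeq2 and limma voom called no transporter in either comparison.

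LP was set against STD to read the effect of the protein content of the starter diet. edgeR's test called 0 of 12584 genes, and 9.05% of genes, with 1 of the 8 transporters, were under an unadjusted p of 0.05. That transporter was SLC38A2, at -0.68 ± 0.17 (n = 6 per group, unadjusted p = 0.0012, adjusted p = 0.245). Of the 6 STD libraries 5 lay above every LP library, and STD replicate 1, at 59.1 CPM, lay among them. DESeq2 called SLC38A2 (adjusted p = 0.0143), the other settings did not, and its difference ran from -0.79 to -0.61 without each library in turn.

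SLC7A5 differed by -1.09 ± 0.57 between LP and STD (adjusted p = 0.613), with wide spread in both groups. LP replicates 2 and 5 were at 9.67 and 10.1 CPM against 39.1 to 84.5 CPM in the other LP libraries, and STD replicate 4 was at 26.4 CPM against 87.4 to 124 CPM in the other STD libraries. The other 6 transporters differed by -0.44 ± 0.47 (SLC1A4) to 0.21 ± 0.32 (SLC38A3). The direction for SLC7A1 (-0.08 ± 0.57), SLC3A2 (-0.19 ± 0.40) and SLC38A3 turned in 1 of the 8 other settings each.

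Between the periods, STD-STD was set against STD and LP-STD against LP. Age, diet phase and library number change together between the periods and cannot be told apart. In pigs kept on the standard diet 15.9% of 13517 genes were called and 7.89% were called lower, and 2 of the 8 transporters fell. SLC7A1 fell by 2.07 on the log2 scale (-2.07 ± 0.39, n = 12 and 6, adjusted p = 0.000147), and 11 of 12 STD-STD libraries lay below every STD library. SLC1A4 fell likewise (-1.41 ± 0.38, adjusted p = 0.00698), again with 11 of 12 below every STD library. Both calls were kept under all 8 other settings and without each of the 18 libraries in turn. SLC3A2 differed by -0.78 ± 0.33 (adjusted p = 0.0968) and was called with limma voom. It was also called without STD-STD replicate 9 or 11, with a lowest adjusted p of 0.0440. SLC7A5 (-0.51 ± 0.34, adjusted p = 0.336), SLC38A3 (-0.37 ± 0.26), SLC38A2 (-0.02 ± 0.20), SLC7A2 (0.15 ± 0.43) and SLC36A4 (0.20 ± 0.20) were not past the threshold.

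After the low protein diet 17.8% of genes were called between LP-STD and LP, 8.78% higher and 9.04% lower, and 3 transporters were called, 2 higher and 1 lower. SLC38A2 rose (1.12 ± 0.21, n = 12 and 6, adjusted p = 8.68e-05). Every LP-STD library, at 81.8 CPM or more, lay above every LP library, at 70.7 CPM or less. The share of all genes separated in this way is not given, so how unusual it is cannot be read. The SLC38A2 call was kept under all 9 other settings and without each of the 18 libraries. SLC7A5 rose (1.16 ± 0.37, adjusted p = 0.0190), with 9 of 12 LP-STD libraries above every LP library. Without LP replicate 2 (0.95, adjusted p = 0.0700) or LP replicate 5 (0.96, adjusted p = 0.0636), the 2 lowest LP libraries, the SLC7A5 call was lost, as it was with LP libraries 16 to 19 only (0.89, adjusted p = 0.158).

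SLC7A1 fell from LP to LP-STD (-1.09 ± 0.39, adjusted p = 0.0444), with 11 of 12 LP-STD libraries below the LP median. This rested on LP replicate 6, the library at 76.7 CPM, without which the log2 difference was -0.38 (adjusted p = 0.596). The call was also lost without LP replicate 1 or 3, or without any of LP-STD replicates 4 to 9, 11 and 12, with adjusted p from 0.0541 to 0.0770, and 5 of the 9 other settings kept it. SLC1A4 differed by -0.38 ± 0.39, SLC3A2 by -0.09 ± 0.34, SLC38A3 by -0.45 ± 0.26 and SLC36A4 by 0.38 ± 0.21. SLC7A2 differed by 0.36 ± 0.43 (adjusted p = 0.620), with all 12 LP-STD libraries above the LP median and 7 above every LP library. A fit of the LP-STD and LP libraries alone, groups with none of the low SLC7A2 libraries, called it (0.37 ± 0.11, adjusted p = 0.0188), and the other 8 settings did not.

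Whether the change between periods differed with the first diet was tested as an interaction, the LP-STD against LP difference minus the STD-STD against STD difference. It called 0.163% of genes and none of the 8 transporters, of which 2 were under an unadjusted p of 0.05, as were 8.66% of all genes. SLC38A2 gave 1.14 ± 0.28 (adjusted p = 0.0712), and SLC7A5 gave 1.67 ± 0.49 (adjusted p = 0.178). DESeq2 and limma voom called both, and edgeR called SLC38A2 without STD replicate 1, STD-STD replicate 3 or STD-STD replicate 8, with a lowest adjusted p of 0.0351. SLC1A4 (1.04 ± 0.56), SLC7A1 (0.98 ± 0.58) and SLC3A2 (0.69 ± 0.48) were not past the threshold, and 7 of 8 values were above 0.

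The groups of the first period were set against BL, which carries the lowest library numbers. The age and diet of BL are not known, so age, diet and library number cannot be told apart here. A rise or fall against BL means only a higher or lower level than in BL. STD lay above BL in 4 transporters among 6.70% of genes called and 2.62% called higher. SLC7A5 rose by 2.08 ± 0.40 (n = 6 and 7, adjusted p = 0.000431), a 4.24-fold higher level, and 5 of 6 STD libraries lay above every BL library. SLC7A1 rose by 1.64 ± 0.46 (adjusted p = 0.0188), SLC3A2 by 1.31 ± 0.38 (adjusted p = 0.0247) and SLC1A4 by 1.48 ± 0.44 (adjusted p = 0.0310). In each of these 4 genes all 6 STD libraries lay above the BL median. SLC38A2 (0.28 ± 0.22), SLC7A2 (0.38 ± 0.47), SLC36A4 (-0.07 ± 0.23) and SLC38A3 (-0.56 ± 0.29) were not past the threshold.

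The SLC7A5 call in STD against BL was kept without each of the 13 libraries, and the other 3 were not. SLC7A1 was lost without STD replicate 2 (adjusted p = 0.0558). SLC3A2 was lost without STD replicate 2 or 3 or BL replicate 1, 3 or 5, with adjusted p from 0.0529 to 0.0651. SLC1A4 was lost without STD replicate 3, 5 or 6 or BL replicate 1, 3, 4 or 5, with adjusted p from 0.0559 to 0.0671. Without BL replicate 4, the library low in fast fibre genes, SLC7A5 gave 2.08 (adjusted p = 0.0013), SLC3A2 1.502 (adjusted p = 0.0154), SLC7A1 1.54 (adjusted p = 0.0466) and SLC1A4 1.27 (adjusted p = 0.0665). A fit to the STD and BL libraries alone called SLC7A5 and no other transporter.

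LP lay above BL in 1 transporter, SLC7A1, among 6.46% of genes called and 2.44% called higher. SLC7A1 rose by 1.57 ± 0.46 (n = 6 and 7, adjusted p = 0.0251), with all 6 LP libraries above the BL median. Without LP replicate 6 the difference was 0.87 (adjusted p = 0.266), and the call was also lost without BL replicate 1, 4 or 5, with adjusted p from 0.0542 to 0.0713. SLC3A2 (1.12 ± 0.38, adjusted p = 0.0582), SLC7A5 (1.00 ± 0.39, adjusted p = 0.114) and SLC1A4 (1.05 ± 0.44, adjusted p = 0.145) were not past the threshold. SLC3A2 and SLC7A5 were both called without LP replicate 2, LP replicate 5 or BL replicate 6, SLC1A4 also without BL replicate 6, and SLC3A2 also without BL replicate 4. STD against BL and LP against BL share the BL libraries.

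**Figure D4:**
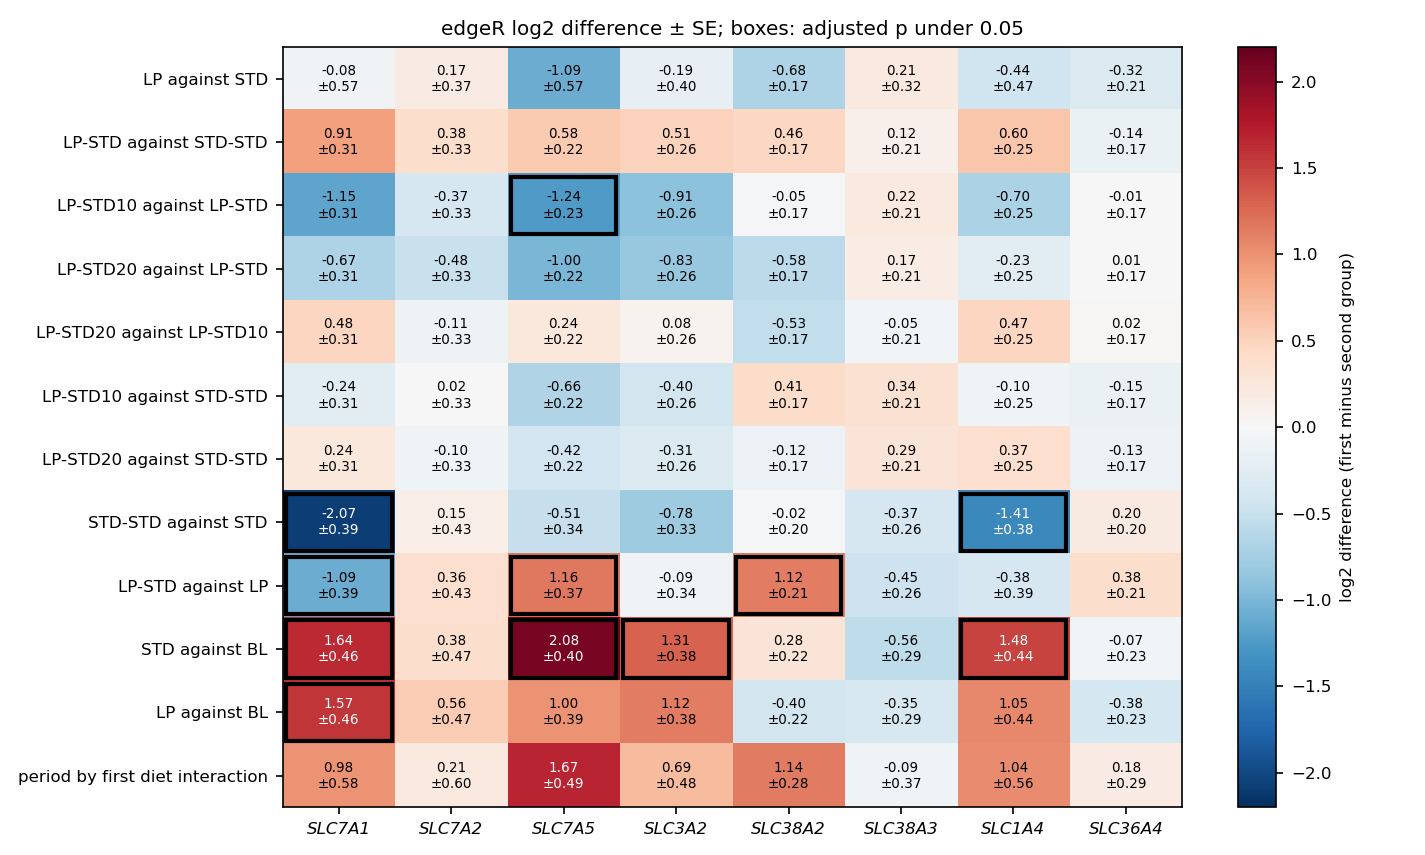
Log2 difference ± SE (edgeR) of each transporter (columns) in each comparison (rows, first group minus second), with colour for the size and a black box where the adjusted p is under 0.05. SLC7A5 is boxed in LP-STD10 against LP-STD, SLC7A1 and SLC1A4 in STD-STD against STD, 3 genes in LP-STD against LP, 4 in STD against BL and SLC7A1 in LP against BL. Comparisons that share a group are not independent.

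Levels also differed between the runs of libraries within a group. Tested jointly over the 4 second-period groups, the runs gave calls in 5.68% of genes and in 4 of the 8 transporters, SLC38A3 (adjusted p = 0.0137), SLC36A4 (adjusted p = 0.0304), SLC1A4 (adjusted p = 0.0395) and SLC7A1 (adjusted p = 0.0453). It did not call SLC7A5 (adjusted p = 0.791), SLC3A2 (adjusted p = 0.497), SLC7A2 (adjusted p = 0.846) or SLC38A2 (adjusted p = 0.0801). In LP-STD the mean SLC7A1 level was 20.4, 5.60 and 11.08 CPM in the 3 runs. SLC38A3 in LP-STD10 against LP-STD differed by 0.18, 1.14 and -0.58 in mean log2 CPM within the 3 blocks, so its direction was not the same in each. SLC38A2 in LP-STD10 had run means of 175, 116 and 89.2 CPM.

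Among pigs of a group, 4 transporters varied together. Of 28 pairs tested over 67 libraries, with log2 CPM taken as the deviation from the group mean, 7 pairs hold SLC7A2 and are not given. Of the other 21, 6 were past an adjusted p of 0.05 in a two-sided permutation test, all positive, and they are the 6 pairs among SLC7A5, SLC3A2, SLC7A1 and SLC1A4. SLC7A5 and SLC3A2, the chains of the heterodimer, had the highest Pearson r, 0.74 (Spearman rho 0.75), which was 0.70 without the 2 libraries farthest from the median of SLC7A5. SLC7A1 and SLC1A4 followed with r = 0.71 (rho 0.76), then SLC7A1 and SLC3A2 with 0.65 (rho 0.64), SLC7A1 and SLC7A5 with 0.64 (rho 0.63), and SLC3A2 and SLC1A4 with 0.57 (rho 0.66). For these 5 pairs the permutation p was 1e-05, the smallest that 100000 permutations can give, and the adjusted p was 5.6e-05. SLC7A5 and SLC1A4 had r = 0.49 (rho 0.50, permutation p = 0.00054, adjusted p = 0.00252).

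Without the 2 farthest libraries r stayed between 0.47 and 0.70 for these 6 pairs. Within the first-period libraries with BL and within each block of 16, r ranged from 0.33 to 0.97 and was positive every time. The other 15 pairs, those with SLC38A2, SLC38A3 or SLC36A4, had r from -0.26 to 0.26 and were not past the threshold.

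**Figure D5:**
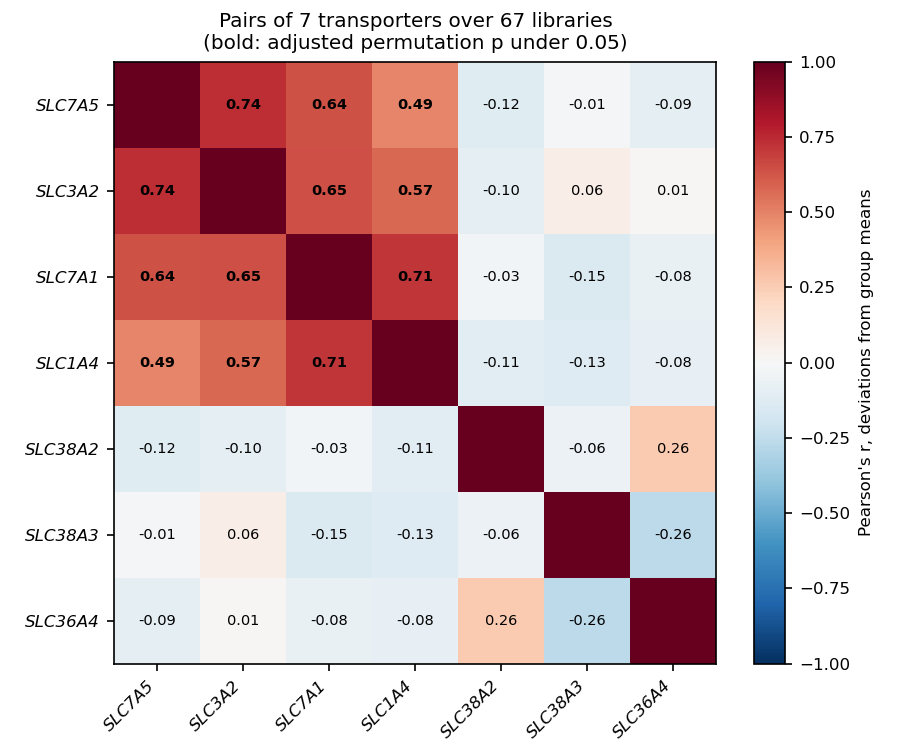
Pearson's r for each pair of 7 transporters (SLC7A2 left out) over 67 libraries, from log2 CPM after subtracting the group mean, with bold type where the adjusted permutation p is under 0.05. The 6 pairs among SLC7A5, SLC3A2, SLC7A1 and SLC1A4 have r from 0.49 to 0.74, and SLC38A2, SLC38A3 and SLC36A4 have r from -0.26 to 0.26 with all others.

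The genes whose pattern was most like each transporter were found in the same way among 13509 genes, by Pearson r over the 67 libraries, and are given as a description. For SLC7A5 they were SARS1 (r = 0.90) and GARS1 (0.89), which charge tRNA with serine and glycine, and EIF2S2 (0.89), a subunit of the initiation factor eIF2. For SLC3A2 they were CEBPG (0.85), a partner of ATF4 on DNA, EIF2S2 (0.80) and MARS1 (0.79), which charges methionine tRNA. For SLC7A1 they were CARS1 (0.86) and YARS1 (0.83), the cysteine and tyrosine tRNA synthetases, and SHMT2 (0.82), an enzyme of serine and glycine conversion in mitochondria. For SLC1A4 they were ALDH1L2 (0.78), an enzyme of mitochondrial folate metabolism, PSPH (0.75), which makes serine, and FGF21 (0.75), a secreted hormone.

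The remaining genes had other neighbours. For SLC38A2 they were IER5 (0.71), IFRD1 (0.69) and SIK1 (0.68), of which IER5 is an immediate early gene and SIK1 a kinase induced by cyclic AMP. For SLC38A3 they were MN1 (0.80), TRIP10 (0.71) and SPATA24 (0.71). For SLC36A4 they were ABCA1 (0.58), which exports cholesterol, ATP6AP2 (0.54), a subunit of the vacuolar proton pump, and MARCHF3 (0.52).

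A list of 36 genes of the amino acid response other than transporters, such as ATF4 and its targets, was read beside the 8. This list, too, was chosen with earlier results of these data known. In LP-STD10 against LP-STD 14 of 35 tested fell and none rose, where 0.345% of all genes were called lower. Among the 14 were PSAT1 (-2.52 ± 0.46, adjusted p = 0.00597) and PSPH (-1.26 ± 0.24), enzymes of serine synthesis, SHMT2 (-0.96 ± 0.18) and ASNS (-1.44 ± 0.28), which makes asparagine. With an estimated correlation between libraries of a run none of the 35 was called, and these 4 genes had adjusted p = 0.0777, 0.0828, 0.0957 and 0.0646 in the order named. The median of the list was -0.60, and in LP-STD20 against LP-STD it was -0.35 with 0 of 35 called, where DESeq2 called 7, a replicate block 8 and limma voom 11, all lower. In LP-STD against STD-STD the median was 0.42 with 0 called, and in LP against STD -0.21 with 0 called, where DESeq2 called 1. In LP-STD10 against STD-STD it was -0.35 with 1 called, PSAT1 (-1.91 ± 0.45, adjusted p = 0.0346), and with correlated runs 0.

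Between periods 15 of 35 of these genes fell in STD-STD against STD, where 7.89% of all genes were called lower. Examples were EIF4EBP1 (-1.28 ± 0.20), a repressor of translation, and FGF21 (-2.54 ± 0.50). In LP-STD against LP 5 rose, including ATF4 (0.68 ± 0.15), and 3 fell, including WARS1 (-0.69 ± 0.18), the tryptophan tRNA synthetase. Over all genes 8.78% were called higher there and 9.04% lower, so these small counts are not read as a movement of the list. Against BL, 20 rose and 1 fell in STD, with ASNS at 2.81 ± 0.49, and 16 rose and 1 fell in LP, with TRIB3, a pseudokinase, at 4.06 ± 0.88. Without BL replicate 4 these counts were 18 and 0 in STD and 13 and 0 in LP, with ASNS at 2.60 and TRIB3 at 4.31. Fits of the compared groups alone called 8 higher in STD and 0 in LP. With all libraries in the fit, 2.62% of all genes were called higher in STD and 2.44% in LP.

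Of 28 other amino acid carriers of the plasma membrane in the table, 17 to 21 passed the filter, depending on the fit. None was called in any comparison within a period, and the list's median in LP-STD10 against LP-STD was -0.05. In STD-STD against STD 4 were called higher and 3 lower, where 15.9% of all genes were called. SLC7A8, another light chain for neutral amino acids that pairs with SLC3A2, rose (1.68 ± 0.44, adjusted p = 0.00504), from 43.2 ± 33.8 CPM in STD (SD, n = 6) to 138 ± 38.9 CPM in STD-STD (SD, n = 12). SLC7A11, the cystine and glutamate exchanger that also pairs with SLC3A2, fell (-2.82 ± 0.68, adjusted p = 0.00236), from 1.28 ± 0.935 CPM to 0.18 ± 0.19 CPM, and SLC38A5, a glutamine carrier, fell (-0.80 ± 0.21). SLC6A18 was also called higher, at 0 CPM in all STD libraries and 1.04 ± 2.49 CPM (SD, n = 12) in STD-STD, and no fold is given.

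In LP-STD against LP 3 of 21 other carriers rose and 2 fell, where 17.8% of all genes were called. SLC7A8 differed by 2.40 ± 0.46 (adjusted p = 0.000114), from 25.1 ± 15.0 CPM in LP to 133 ± 41.7 CPM in LP-STD, and SLC38A5 by -0.99 ± 0.21. Against BL 6.70% of all genes were called in STD and 6.46% in LP. In STD against BL 3 rose, SLC1A5 (1.16 ± 0.27), an exchanger of neutral amino acids, SLC6A9 (1.57 ± 0.38), a glycine carrier, and SLC7A11 (3.35 ± 0.84). In LP against BL SLC6A9 rose (1.83 ± 0.38) and SLC38A4, a carrier of small neutral amino acids, fell (-1.15 ± 0.25). These 5 calls were kept without BL replicate 4. The 7 lysosomal carriers (6 tested) gave 1 call each in STD and LP against BL, SLC15A4, and none elsewhere. Both calls rested on BL replicate 4, where SLC15A4 was at 98.5 CPM against 12.2 to 16.6 CPM in the other 6 BL libraries. Without it the log2 difference turned from -0.80 to 0.05 in STD (adjusted p = 0.801) and from -0.78 to 0.08 in LP (adjusted p = 0.713).

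Genes of amino acid sensing upstream of the kinase complex mTORC1 (21 tested) gave 2 rises and 2 falls in STD-STD against STD, such as SESN3 (0.86 ± 0.20). Over all genes 15.9% were called there. The sensing genes gave 2 rises in LP-STD against LP, 1 fall in STD against BL, 3 falls in LP against BL and no call elsewhere. Over all genes 17.8%, 6.70% and 6.46% were called in these comparisons, in the order named. The counts of the sensing genes are therefore not read as a movement of the list. Without BL replicate 4 the calls against BL numbered 0 and 1, and that 1 was a gene not called before. The 3 genes called in LP, SESN1, LAMTOR4 and CASTOR2, then had adjusted p = 0.694, 0.0610 and 0.586. Of 10 tested genes of insulin and S6 kinase signalling, AKT2, a kinase of the insulin pathway, fell in LP-STD10 against LP-STD (-0.41 ± 0.07, adjusted p = 0.00494) and against STD-STD (-0.44 ± 0.07). Over all genes 0.407% and 0.399% were called there, in the same order. RPS6KB1, the S6 kinase, rose in STD-STD against STD (0.42 ± 0.08) and in LP-STD against LP (0.46 ± 0.08), and IGF1R fell in the former (-0.95 ± 0.22). This list gave 3 falls in STD against BL and 2 in LP against BL, which were 0 and 1 without BL replicate 4, and no call in the other comparisons.

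Marker genes of fibre types and other cells were called in some of these comparisons. Over all genes 8.78% were called higher and 9.04% lower in LP-STD against LP, and 15.9% were called in STD-STD against STD. Slow fibre genes fell in LP-STD against LP in 7 of 8, with median sums of 6955 CPM (5502 to 11763) in LP and 4406 CPM (3289 to 7050) in LP-STD. Genes of fibroadipogenic cells fell there in 6 of 9, with median sums of 9441 CPM (6479 to 11675) and 4718 CPM (3156 to 7189). In the same comparison 2 of 7 fast fibre genes and 1 of 4 nerve genes rose, and 2 of 3 erythroid, 1 of 6 adipocyte and 1 of 9 lymphocyte genes fell. In STD-STD against STD 2 lymphocyte genes and 1 fibroadipogenic gene rose, and 1 gene each of the endothelial, lymphocyte, fibroadipogenic and adipocyte lists fell.

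Against BL, 2 fast fibre, 1 fibroadipogenic and 1 lymphocyte gene rose in STD, and 3 fibroadipogenic and 4 lymphocyte genes rose in LP. Over all genes 2.62% were called higher in STD and 2.44% in LP. Without BL replicate 4 no fast fibre gene was called in STD, 1 lymphocyte gene rose and 1 fibroadipogenic gene fell there, and 3 fibroadipogenic and 3 lymphocyte genes rose in LP. That lymphocyte gene in STD was not CD3D, the gene called with all BL libraries, whose adjusted p was then 0.0622. In LP-STD10 and LP-STD20 against LP-STD no marker gene was called. Summed macrophage genes had a median of 100.2 CPM (63.9 to 242) in LP-STD, 145 CPM (75.5 to 393) in LP-STD10 and 157 CPM (65.8 to 324) in LP-STD20, with LYZ and MARCO at a median of 0. The genes SLC4A1 and AHSP of red cells and MS4A1 of B cells were also at a median of 0, and satellite cell genes gave no call. The part of these cells in the transporter differences was not tested.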

How the data were processed

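RNA from the longissimus dorsi of 67 pigs was sequenced, and the authors deposited raw read counts per gene for every library. The submitters' processing notes name the build Sscrofa11.1 and DESeq2. The aligner, the counter, the strand setting and the filters were not given in the sources used here. Nothing in the labels says more about replicates than that each library is a separate pig sample. The transporters and gene lists were chosen with earlier results of these data known.

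Counts were tested with edgeR 4.0.16 (R 4.3.3): filterByExpr, TMM scaling, a robust quasi-likelihood fit, and Benjamini-Hochberg adjustment over all genes tested, with a threshold of 0.05. LP and STD were fitted alone (12 libraries, 12584 genes), the second period alone (48 libraries, 13032 genes), and comparisons between periods, with BL and the interaction in a fit of all 67 libraries (13517 genes). The SE is the log2 difference divided by the square root of F. Log2 CPM used a prior count of 2. Comparisons within blocks of 4 against 4 libraries used exact permutation tests, and pairs of genes used 100000 permutations. Alternatives were another scaling, other filters, DESeq2 1.42.0, limma 3.58.1 voom with quality weights, a replicate block, blocks of libraries, correlated runs, other sets of groups and each library left out in turn (127 refits). The fits were tested on simulated counts. Named genes of a list are at most 4 per comparison, by smallest adjusted p among those called, and 3 genes of most like pattern are named per transporter.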

Additional observations from a re-analysis of the deposited data

Results flagged for a closer look

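Of 24 combinations of a transporter and a group of 6 or 7 libraries, 3 held a library far from the others, where chance gives about 1 in 20. SLC7A2 was lowest in STD replicate 6, at 7.57 CPM. SLC7A5 was lowest in STD replicate 4, at 26.4 CPM, a library whose slow fibre genes summed to 14793 CPM against 5644 to 7408 CPM in the other STD libraries. In LP the libraries lowest in SLC7A5, replicates 2 and 5, had slow fibre sums of 6785 and 6985 CPM. The highest LP sums, 11626 and 11763 CPM, were in replicates 1 and 6, with SLC7A5 at 39.1 and 62.2 CPM. SLC36A4 was highest in BL replicate 4, at 4.54 CPM, the library also low in fast fibre genes. The cause was not tested in any of them.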

How the results depend on the processing

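No called transporter difference changed direction. With 1 library left out the number of transporters called ran from 0 to 0 in LP against STD, in LP-STD against STD-STD, in LP-STD20 against LP-STD10 and in both lysine groups against STD-STD. It ran from 1 to 2 in LP-STD10 against LP-STD, 0 to 1 in LP-STD20 against LP-STD and in the interaction, 2 to 3 in STD-STD against STD and in LP-STD against LP, 2 to 4 in STD against BL and 0 to 4 in LP against BL. Calls over all genes under the same setting follow in brackets. DESeq2 called 1 in LP against STD (129), 2 in LP-STD10 against LP-STD (176), 1 in LP-STD20 against LP-STD (110), 2 in LP against BL (1141) and 2 in the interaction (83). Limma voom called 2 in LP-STD20 against LP-STD (411), 2 in LP against BL (808) and 2 in the interaction (77). Fits of only the compared groups called 1 in STD against BL (106) and 0 in LP against BL (53). LP libraries 16 to 19 only, a setting chosen after seeing the data, gave 3 in LP against BL (721). The list counts without BL replicate 4 and under other settings were likewise added after seeing the data. With no count filter the test of runs called 2 (619). The cause was not tested. The other 99 counts under other settings stayed within 1.5 times.

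In no comparison did every pair of same-numbered libraries correlate above 0.1. In LP-STD against STD-STD 6 of 12 pairs did, and in LP against STD 0 of 6. Such a rule cannot exclude a shared litter or day, and the labels do not say whether the numbers pair the samples. A replicate block called 2 transporters in LP-STD10 against LP-STD, among 61 of all genes, and 1 in LP-STD20 against LP-STD, among 29.

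Over all genes, LP against STD gave 0 calls, 1 in the fit of all libraries or with limma voom, and 129 with DESeq2. LP-STD10 against LP-STD gave 53, 176 with DESeq2 and 5 with correlated runs. LP-STD20 against LP-STD gave 6, 110 with DESeq2, 411 with limma voom, 29 with a replicate block, 10 with blocks of 16, 3 with the compared groups alone and 1 with correlated runs. LP-STD10 against STD-STD gave 52, 143 with DESeq2, 107 with limma voom and 12 with correlated runs. DESeq2 gave 8 in LP-STD against STD-STD, 4 in LP-STD20 against LP-STD10 (1 with a replicate block) and 19 in LP-STD20 against STD-STD, where edgeR gave 0. STD against BL gave 905, and 106 with the compared groups alone. LP against BL gave 873, and 53 likewise. LP-STD against LP gave 2409, and 1384 with LP libraries 16 to 19 only. The interaction gave 22, 83 with DESeq2, 77 with limma voom, 52 with the compared groups, 7 with a replicate block and 0 with correlated runs or LP libraries 16 to 19 only. The test of runs gave 740, and 1542 with DESeq2. Low levels limit SLC36A4, at 1.31 to 4.54 CPM.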
